A study of Mus musculus with 9 samples.

Results

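A group of 10 messenger RNAs for regulatory cytokines and their receptors were followed in mouse lungs injured by lipopolysaccharide (LPS). They were chosen by symbol, with no measured value in the rule, and each of the 10 symbols had 1 row among the 52381 genes of the deposited FPKM table. FPKM is a fragment count scaled by gene length and by the size of the library. The TMAO group holds 5 lungs of mice with LPS-induced acute lung injury that also received trimethylamine N-oxide (TMAO), a metabolite of gut bacterial origin. The LPS-ALI group holds 4 lungs of mice with the same injury and no TMAO, so every animal described here carried the injury. The sources used here do not give strain, age, doses, routes or times. The libraries come from separately numbered mice, and p-values set the difference of the groups against the spread between mice. The labels name lung as the tissue while their extraction text names platelets. A sum of 7 alveolar type 2 cell markers reached 4908 FPKM or more in TMAO lungs and 1274 FPKM or more in LPS-ALI lungs, while 6 platelet markers summed to 18.7 to 27.4 FPKM in TMAO lungs and 31.2 to 75.1 FPKM in LPS-ALI lungs.

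Interleukin-10 (IL-10) restrains inflammatory gene expression in macrophages and other leukocytes. It binds the leukocyte chain Il10ra, pairs it with the widely expressed chain Il10rb, and signals through Stat3. The IL-12 family consists of cytokines built from pairs of subunits: Il12b joins Il12a to form IL-12 or Il23a to form IL-23, which favour T cell and NK cell activation, whereas Ebi3 joins Il27 to form IL-27, which has mixed, often restraining, effects. Transforming growth factor beta (TGF-beta) is secreted in latent form, binds the type II receptor Tgfbr2, and acts through the type I receptor Tgfbr1 and Smad proteins. In the lung it shapes repair, fibrosis and epithelial and endothelial permeability.

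Several facts of the whole series bear on these genes. Relative depths, estimated from how low FPKM values are spaced, were 0.383 to 0.683 in the TMAO libraries and 0.496 to 1 in the LPS-ALI libraries. TMAO replicate 5, the shallowest library, stood apart: it was the lowest of the 9 libraries for 74.3% of the 11817 tested genes, and for 8 of the 8 tested members. Genes of the mitochondrial genome held 52.2% of its FPKM, against 33.4% to 49.3% in the other libraries. It also had the highest FPKM total, 1525935, and the fewest genes with at least 1 FPKM, 8846. Why this library stood apart was not tested. A tested gene had at least 1 FPKM in at least 4 libraries. LPS-ALI replicate 4 stood apart as well, with the lowest alveolar type 2 sum. Different kinds of library code occur: an X opens the codes of LPS-ALI replicates 3 and 4, a B all others. The TMAO codes carry consecutive numbers, and the B-coded LPS-ALI libraries carry higher ones. Group and code series therefore coincide even without the X-coded libraries. The sources used here do not explain the letters or the numbers. Across all tested genes the median log2 difference, TMAO minus LPS-ALI, was -0.17. Differences of log2(FPKM + 1) are therefore given unshifted, with a standard error (SE), and again relative to that median gene.

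In these bulk samples fewer cells of a type and less RNA per cell cannot be told apart. Summed pan-leukocyte markers (6 of 6 tested) had 114 to 261 FPKM in TMAO lungs and 261.0 to 284.5 FPKM in LPS-ALI lungs. Monocyte and macrophage markers (9 of 10 tested) had 115 to 258 FPKM in TMAO lungs and 223 to 413 FPKM in LPS-ALI lungs. T and NK cell markers (4 of 10 tested) had 6.73 to 10.9 FPKM in TMAO lungs and 9.22 to 26.2 FPKM in LPS-ALI lungs. These 3 sums overlapped between the groups at their edges. B and plasma cell markers (1 of 6 tested) had 1.51 to 4.28 FPKM in TMAO lungs and 5.46 to 9.39 FPKM in LPS-ALI lungs, without overlap. The platelet sums given above did not overlap either. As mean log2 levels relative to the median gene of each library, these lists did overlap. B and plasma cell markers lay at -2.67 to -1.43 in TMAO lungs and -2.30 to -1.61 in LPS-ALI lungs. Platelet markers lay at -1.78 to -0.57 in TMAO lungs and -1.04 to -0.47 in LPS-ALI lungs. Neutrophil markers (8 of 8 tested) had 7686 to 14710 FPKM in TMAO lungs and 7488 to 20630 FPKM in LPS-ALI lungs, with a median member at the median gene (0.00). Dendritic cell markers (4 of 7 tested) had 8.60 to 51.94 FPKM in TMAO lungs and 19.85 to 43.64 FPKM in LPS-ALI lungs, with a median member 0.35 above the median gene on the log2 scale. Alveolar macrophage markers (7 of 8 tested) had 160 to 341 FPKM in TMAO lungs and 277 to 552 FPKM in LPS-ALI lungs, with a median member at -0.35 relative to the median gene. On the same scale the median member was at -0.42 for pan-leukocyte, -0.16 for monocyte and macrophage, -0.33 for T and NK cell and -0.25 for B and plasma cell markers. Not all leukocyte lists thus had lower values in TMAO lungs. Outside the leukocytes, the median member was at 0.53 for endothelial (7 of 7 tested) and 0.49 for fibroblast markers (5 of 6 tested). It was at 0.34 for alveolar type 2 (7 of 7 tested) and -0.69 for platelet markers (4 of 6 tested). Endothelial sums were 448 to 1598 FPKM in TMAO lungs and 547 to 1034 FPKM in LPS-ALI lungs, with overlap. No list had a marker at 0 in all libraries, but Foxp3, which defines regulatory T cells, was the lowest of the T and NK cell list. The part of these cell types in the results was not tested.

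Upstream sequence was at hand for 6 of the 10 members in the RefSeq table of build GRCm38.p6, and that of 4 is shown. They form the contrasts described below. An IL-12 family subunit that was nearly unmeasured stands against the one with the highest level. The receptor pair of TGF-beta is shown because its ratio did not overlap between the groups. That separation was not particular to the pair, since 14.6% of tested genes had a ratio to Tgfbr1 that separated the groups in this direction. Each line gives the 250 bases before the RefSeq start, on the strand of the gene. Capitals mark every match, on either strand, to the TATA elements TATAAA or TATATAA, the GC box GGGCGG, or the outline of an NF-kappa-B site, which is GGG and CC separated by any 5 bases. AP-1 (TGANTCA) and GAS (TTCNNNGAA) elements were also searched and had no match in these 4 windows. Matches of different motifs could overlap.
Il12b, chr11:44399813-44400062, plus strand: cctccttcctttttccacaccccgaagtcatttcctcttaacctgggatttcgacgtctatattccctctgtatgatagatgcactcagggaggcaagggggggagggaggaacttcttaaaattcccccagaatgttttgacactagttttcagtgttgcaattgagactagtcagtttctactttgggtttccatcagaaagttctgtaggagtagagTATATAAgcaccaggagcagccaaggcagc
Ebi3, chr17:55952373-55952622, plus strand: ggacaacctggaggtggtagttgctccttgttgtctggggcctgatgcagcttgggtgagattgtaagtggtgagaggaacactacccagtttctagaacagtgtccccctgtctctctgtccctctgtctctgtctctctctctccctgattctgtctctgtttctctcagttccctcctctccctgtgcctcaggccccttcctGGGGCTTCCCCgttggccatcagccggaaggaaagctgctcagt
Tgfbr2, chr9:116175364-116175613, minus strand: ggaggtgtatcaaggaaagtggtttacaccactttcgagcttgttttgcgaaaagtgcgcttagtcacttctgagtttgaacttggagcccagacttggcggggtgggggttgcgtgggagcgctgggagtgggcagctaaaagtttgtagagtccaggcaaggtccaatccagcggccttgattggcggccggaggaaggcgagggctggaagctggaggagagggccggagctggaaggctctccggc
Tgfbr1, chr4:47352972-47353221, plus strand: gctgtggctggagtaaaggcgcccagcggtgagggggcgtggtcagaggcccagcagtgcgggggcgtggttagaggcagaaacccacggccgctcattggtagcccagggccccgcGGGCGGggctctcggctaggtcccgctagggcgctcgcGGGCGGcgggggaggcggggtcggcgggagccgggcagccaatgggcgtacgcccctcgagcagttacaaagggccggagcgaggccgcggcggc

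The Il12b window held TATATAA at position -30 and no GC box, and 3.04% of 32851 promoter windows of this length held TATATAA. The Ebi3 window held 2 overlapping matches to the NF-kappa-B outline, the nearer one starting at position -43, and 45.8% of all windows held at least 1 such match. The Tgfbr1 window held 2 GC boxes, where 32.7% of windows held at least 1, and had a GC content of 74.8%, while the Tgfbr2 window held none of the motifs and had 58.4%. The median window had 52.4%. RefSeq lists another start of Tgfbr1, whose window is not shown. The windows of Tgfb1 and Il4ra, not shown, held 7 and 0 matches to the NF-kappa-B outline and 5 and 1 GC boxes. These matches describe the letters of the windows only. Sites of other forms were not searched, so a window without a match is not shown to lack a site. Binding and its relation to level were not tested.

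**Figure D1:**
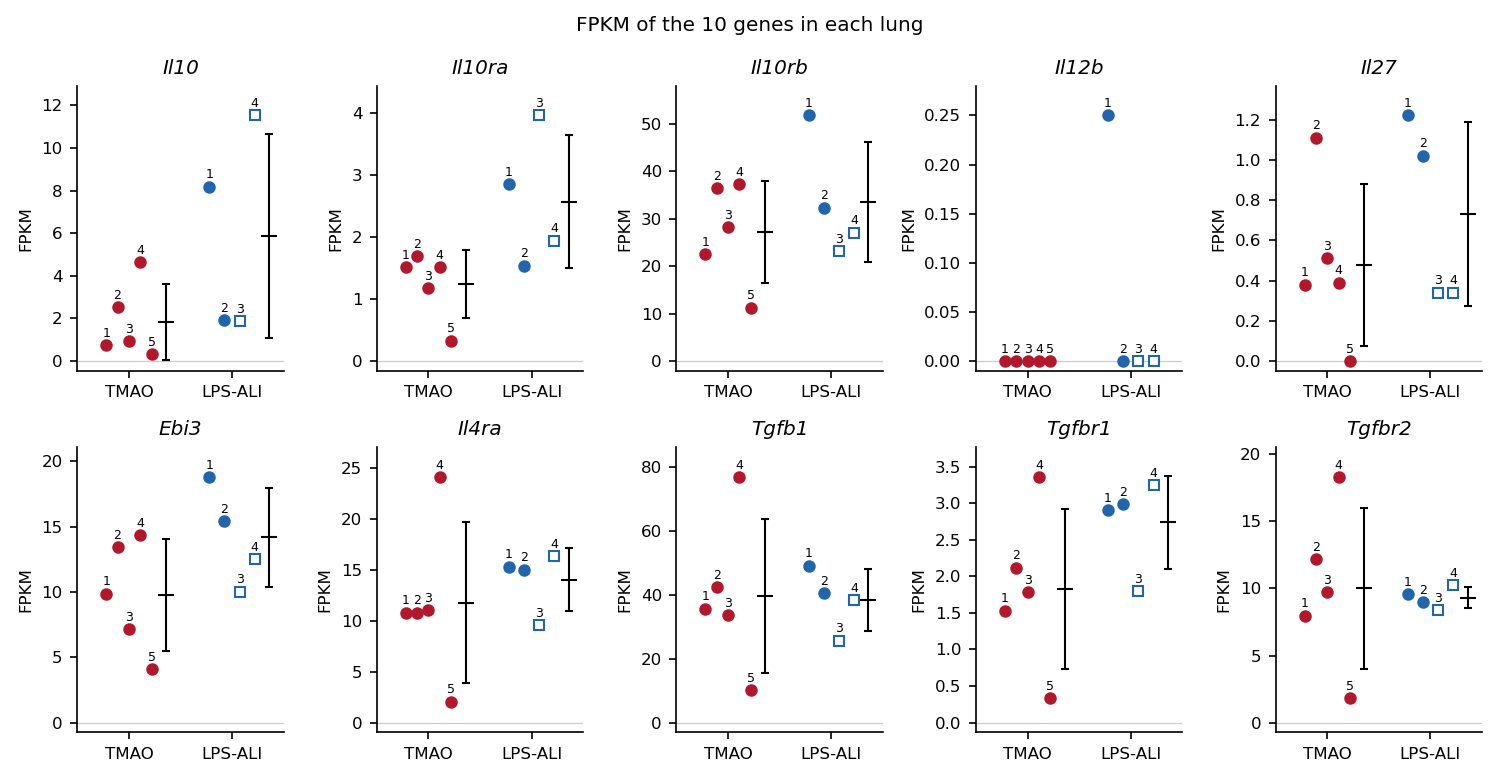
FPKM of the 10 genes in each lung, with TMAO lungs left and LPS-ALI lungs right. Numbers are replicates, open squares are the libraries with codes that begin with X, and the bar beside each group is the mean ± SD, which is left out for Il12b. Il10 reached 8.18 and 11.52 FPKM in 2 LPS-ALI lungs only, and TMAO replicate 5 was lowest for the 8 genes that were tested.

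The design asks how TMAO treatment altered injured lungs. None of the 8 tested members passed limma with Benjamini-Hochberg adjustment at 0.05, and neither did any of the 11817 tested genes (0%). At an unadjusted limma p under 0.05 there were 396 tested genes, of which Il10 was the only member, and at an exact permutation p under 0.05 there were 427 lower and 52 higher in TMAO lungs, of which Il10ra was the only member. All 8 adjusted p-values by limma were 0.998. All 8 unshifted differences lay below 0, where 72.1% of tested genes did, and 6 of 8 lay below the median gene. No member had groups without overlap, against 1.36% of tested genes lower and 0.118% higher in TMAO lungs with such a gap. Il12b and Il27 were too low to be tested with limma.

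Il10 itself was the member with the largest log2 difference. It lies on chromosome 1 from 131019845 to 131024974 (GRCm38, plus strand, ENSMUSG00000016529), with no annotated overlapping gene. Its level was 0.74, 2.54, 0.93, 4.64 and 0.33 FPKM in TMAO replicates 1 to 5, against 8.18, 1.92, 1.88 and 11.52 FPKM in LPS-ALI replicates 1 to 4. LPS-ALI replicates 1 and 4 were above every TMAO lung, while LPS-ALI replicates 2 and 3 fell between TMAO replicates 2 and 3. The ratio of the group means, TMAO over LPS-ALI, was 0.312. The log2 difference was -1.18 ± 0.52 (SE, n = 5 and 4), or -1.01 relative to the median gene. Its unadjusted limma p was 0.0378, and 2.93% of tested genes were lower and 0.423% higher in TMAO lungs at a limma p under 0.05. By the exact two-sided permutation test over the libraries p was 0.127. Without LPS-ALI replicate 4 the log2 difference was -0.79, or -0.66 relative to the median gene.

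The within-library level of Il10 had a wide spread in LPS-ALI lungs. Relative to the median gene of its own library it lay between -1.95 and -0.85 log2 units in TMAO lungs, and at 0.16, -1.33, -1.24 and 0.67 in LPS-ALI replicates 1 to 4. Against Ptprc, the pan-leukocyte surface phosphatase, the FPKM ratio of Il10 was 0.135 to 0.387 in TMAO lungs. In LPS-ALI replicates 1 and 4 it was 0.917 and 2.20, and in LPS-ALI replicates 2 and 3 it was 0.260 and 0.175, inside the TMAO range. When each library was centred on the pan-leukocyte markers, the Il10 difference was -0.68 (exact permutation p = 0.246).

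Among the tested genes with a pattern most like that of Il10, by the root-mean-square difference of centred log2 values over the 9 libraries, were Ccl3 (0.327 log2 units), a macrophage chemokine, and Cxcl2 (0.451), a neutrophil chemokine. The median tested gene differed from Il10 by 0.904. Values were centred on the mean of each gene and not on each library, so shifts shared across a library enter the likeness. Ccl3 had 10.97 to 49.75 FPKM in TMAO lungs, against 48.90, 21.32, 16.11 and 114.0 FPKM in LPS-ALI replicates 1 to 4. As with Il10, the highest value was in LPS-ALI replicate 4.

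Il10ra, the ligand-binding chain carried mainly by leukocytes, was low and had a lower mean in TMAO lungs. The gene lies on chromosome 9 from 45253837 to 45269149 on the minus strand. It had 1.51, 1.69, 1.18, 1.51 and 0.33 FPKM in TMAO replicates 1 to 5, against 2.85, 1.54, 3.96 and 1.94 FPKM in LPS-ALI replicates 1 to 4. Only TMAO replicate 2 and LPS-ALI replicate 2 crossed, and 4 of 5 TMAO lungs were below every LPS-ALI lung. The log2 difference was -0.67 ± 0.32 (SE, n = 5 and 4), or -0.50 relative to the median gene. The exact permutation p was 0.0238, unadjusted, and 3.61% of all tested genes were lower and 0.44% higher in TMAO lungs at an exact p under 0.05. Over the 19 alternative settings that could move it, the exact permutation p ran from 0.0159 to 0.476, and 7 were under 0.05. It was 0.0952 with each library centred on its median gene, 0.107 without LPS-ALI replicate 3, the highest library, and 0.286 without both X-coded libraries.

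Centred on the pan-leukocyte markers of the same library, the Il10ra difference was -0.16 (exact permutation p = 0.476). The ratio of Il10ra to Ptprc was 0.126 to 0.281 in TMAO lungs and 0.208 to 0.371 in LPS-ALI lungs, so the groups overlapped. The part of leukocyte content in the difference was not tested beyond these values.

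Il10rb, the partner chain that IL-22 and lambda interferon receptors also use, was far more abundant. It had 22.49, 36.47, 28.30, 37.25 and 11.24 FPKM in TMAO replicates 1 to 5, against 51.81, 32.36, 23.22 and 27.07 FPKM in LPS-ALI replicates 1 to 4. LPS-ALI replicate 1 was highest and TMAO replicate 5 lowest, and the others of the groups were interleaved. The log2 difference was -0.34 ± 0.40 (SE, n = 5 and 4), or -0.17 relative to the median gene, with an exact permutation p of 0.452. It was -0.07 without TMAO replicate 5, -0.12 without LPS-ALI replicate 1 and -0.69 without both X-coded libraries. An annotated gene, Gm21970, shares exons with Il10rb on the same strand and was listed at 0 in every library. Per length, Il10rb exceeded Il10ra 14.9 to 34.1 times in TMAO lungs and 5.86 to 21.01 times in LPS-ALI lungs.

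Among the IL-12 family subunits, Il12b was almost absent from the measurements. It was listed at 0 in all 5 TMAO lungs and in LPS-ALI replicates 2 to 4, and had 0.25 FPKM in LPS-ALI replicate 1. Of 1189 genes with a mean of at least 50 FPKM, 6 were listed at 0 in a library, so a listed 0 is not a general feature of abundant genes here. Il23a, the partner of Il12b in IL-23, was listed at 0 in all 5 TMAO lungs and had 0 to 0.16 FPKM in LPS-ALI lungs. Il12a, the partner of Il12b in IL-12, had 0.58, 2.05, 0.73, 1.69 and 2.93 FPKM in TMAO replicates 1 to 5, against 4.71, 0.74, 0.76 and 0.17 FPKM in LPS-ALI replicates 1 to 4. Its groups overlapped throughout.

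Ebi3 was the IL-12 family subunit with the highest level. It lies on chromosome 17 from 55952640 to 55957022 on the plus strand and shares exonic sequence with the antisense gene Gm16712. The sources used here do not give a strand setting, so reads of such a pair cannot be told apart. Ebi3 had 9.86, 13.43, 7.17, 14.33 and 4.09 FPKM in TMAO replicates 1 to 5, against 18.80, 15.40, 10.03 and 12.49 FPKM in LPS-ALI replicates 1 to 4. LPS-ALI replicates 1 and 2 were above every TMAO lung, and 3 of 5 TMAO lungs were below every LPS-ALI lung. The log2 difference was -0.57 ± 0.39 (SE, n = 5 and 4), or -0.40 relative to the median gene (exact permutation p = 0.167), and -0.32 without TMAO replicate 5. With each library centred on its median gene the exact permutation p was 0.0556, the lowest over the alternatives. Centred on pan-leukocyte markers the difference was -0.06 (exact permutation p = 0.818).

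Il27, the subunit that pairs with Ebi3, was near the limit of measurement. It had 0.38, 1.11, 0.51 and 0.39 FPKM in TMAO replicates 1 to 4 and was listed at 0 in TMAO replicate 5, against 1.22, 1.02, 0.34 and 0.34 FPKM in LPS-ALI replicates 1 to 4. Multiplied by relative depth, these values were whole multiples of a common step of 0.086 FPKM, to within 0.0862 steps. That step was the largest found with every value within 0.1 steps of a whole multiple. The closeness was thus a condition of its choice. The multiples were 3, 8, 4, 3 and 0 in TMAO replicates 1 to 5, against 7, 9, 4 and 3 in LPS-ALI replicates 1 to 4. If the step is 1 fragment, which was not tested, the Il27 values rest on at most 9 fragments a library. The groups overlapped and the exact permutation p was 0.452. Apobr, on the other strand, shares exonic sequence with Il27. Where Il27 was above 0, Ebi3 exceeded it 12.1 to 36.7 times per length in TMAO lungs and 15.1 to 36.7 times in LPS-ALI lungs.

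Il4ra, the receptor chain shared by IL-4 and IL-13, which drive alternative macrophage activation and mucus responses, had overlapping values in the groups. It had 10.79, 10.80, 11.06, 24.10 and 2.06 FPKM in TMAO replicates 1 to 5, against 15.29, 15, 9.53 and 16.33 FPKM in LPS-ALI replicates 1 to 4. The highest and the lowest of the 9 values were both TMAO lungs, replicates 4 and 5. The log2 difference was -0.49 ± 0.49 (SE, n = 5 and 4), or -0.32 relative to the median gene (exact permutation p = 0.571), -0.04 without TMAO replicate 5 and -0.80 without TMAO replicate 4. Its ligand genes Il4 and Il13 were listed at 0 in all 9 libraries. The genes most like it in pattern were Dnajb5, a heat shock protein family gene, Tgfb1i1, a focal adhesion adaptor, and Bcar1, an adaptor of integrin signalling, at 0.127, 0.129 and 0.144 log2 units from it. The median tested gene stood at 0.563. Like Il4ra, each of these genes was highest in TMAO replicate 4 and lowest in TMAO replicate 5, and shifts of whole libraries were not removed.

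Tgfb1 had the highest level of the members in each group. It lies on chromosome 7 from 25687002 to 25705077 on the plus strand. Its level was 35.60, 42.42, 33.67, 76.86 and 10.06 FPKM in TMAO replicates 1 to 5, against 49.08, 40.58, 25.68 and 38.35 FPKM in LPS-ALI replicates 1 to 4. Again TMAO replicates 4 and 5 held the extremes and the other TMAO lungs lay within the LPS-ALI range. The log2 difference was -0.17 ± 0.47 (SE, n = 5 and 4), 0.00 relative to the median gene (exact permutation p = 0.778). Without TMAO replicate 5 it was 0.24. The nearest patterns were those of Calu, a calcium-binding protein of the secretory pathway, Slc30a9, a zinc transporter family gene, and Rin3, a regulator of endosomal Rab proteins, at 0.0852, 0.103 and 0.118 log2 units, against a median of 0.510. Each of them was also highest in TMAO replicate 4 and lowest in TMAO replicate 5, which was lowest for 74.3% of tested genes. Shared regulation of these genes was not tested.

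**Figure D2:**
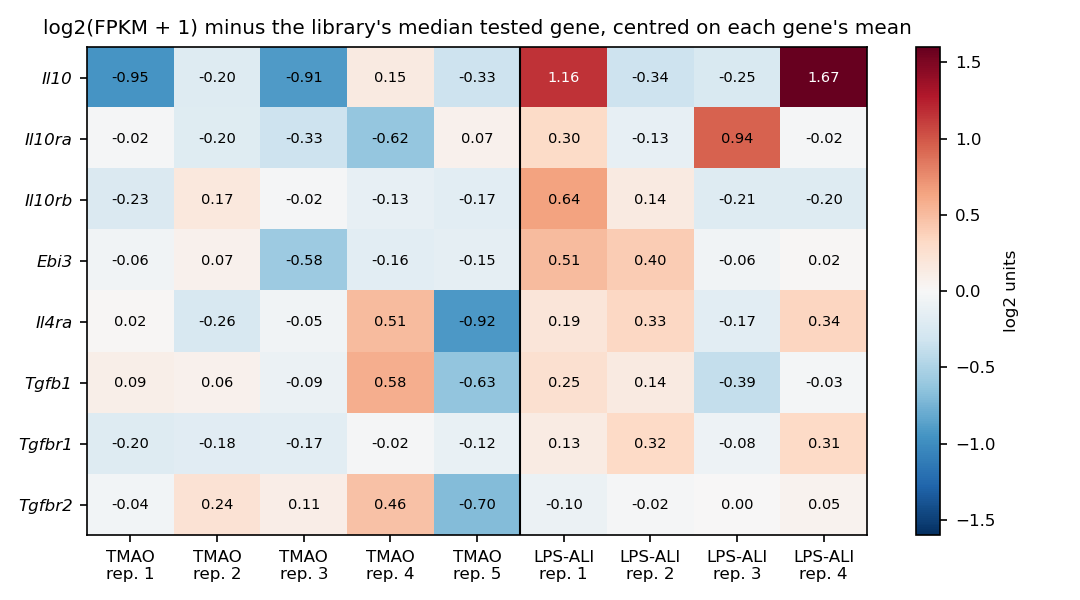
Level of the 8 tested genes in each library, as log2(FPKM + 1) minus the median tested gene of that library and centred on the mean of each gene over the 9 libraries, in log2 units. TMAO libraries are left of the line and LPS-ALI libraries right of it. Il10 was 1.16 and 1.67 above its mean in LPS-ALI replicates 1 and 4, and Tgfbr1 was below its mean in all 5 TMAO lungs.

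The receptors of TGF-beta differed in how the groups compared, with no test of that difference. Tgfbr1, the type I receptor kinase, had 1.53, 2.12, 1.78, 3.36 and 0.33 FPKM in TMAO replicates 1 to 5, against 2.91, 2.99, 1.80 and 3.25 FPKM in LPS-ALI replicates 1 to 4. Its log2 difference was -0.49 ± 0.35 (SE, n = 5 and 4), or -0.32 relative to the median gene (exact permutation p = 0.222), and -0.24 without TMAO replicate 5. Tgfbr2, the ligand-binding type II receptor kinase, had 7.97, 12.17, 9.70, 18.31 and 1.84 FPKM in TMAO replicates 1 to 5, against 9.59, 8.98, 8.39 and 10.23 FPKM in LPS-ALI replicates 1 to 4. The TMAO values enclosed those of LPS-ALI lungs, and the log2 difference was -0.14 ± 0.47 (SE, n = 5 and 4), or 0.02 relative to the median gene (exact permutation p = 0.881), and 0.28 without TMAO replicate 5.

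Within a library, the ratio of these receptors is free of library scaling. Tgfbr2 over Tgfbr1 was 5.21, 5.74, 5.45, 5.45 and 5.58 in TMAO replicates 1 to 5, against 3.30, 3.00, 4.66 and 3.15 in LPS-ALI replicates 1 to 4. Every TMAO lung was above every LPS-ALI lung, TMAO replicate 5 included, and the closest LPS-ALI library was the X-coded replicate 3. Of all tested genes, 14.6% had a ratio to Tgfbr1 that was higher in every TMAO lung than in every LPS-ALI lung, so this separation is shared by many genes and was not particular to Tgfbr2. With each library centred on its median gene, Tgfbr1 had an exact permutation p of 0.0159, unadjusted, where 4.09% of tested genes were lower and 4.52% higher in TMAO lungs at an exact p under 0.05. That was the lowest of the 19 alternative settings that could move it, of which 2 were under 0.05, and with libraries centred on pan-leukocyte markers the exact permutation p was 0.897. Tgfbr1 was lowest, at 0.33 FPKM, in TMAO replicate 5, the shallowest library. Centring gives each library its own floor: Il12b, listed at 0 in both, lay at -1.74 log2 units in TMAO replicate 5 and -3.35 in TMAO replicate 4. Il10, Il10ra and Tgfbr1, each at 0.33 FPKM in TMAO replicate 5, all lay at -1.33 there. Centred values and p-values of low members therefore depend in part on this floor. Within a library, the ratio of Tgfb1 to Il10 was 16.6 to 48.1 in TMAO lungs and 3.33 to 21.1 in LPS-ALI lungs, with overlap.

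**Figure D3:**
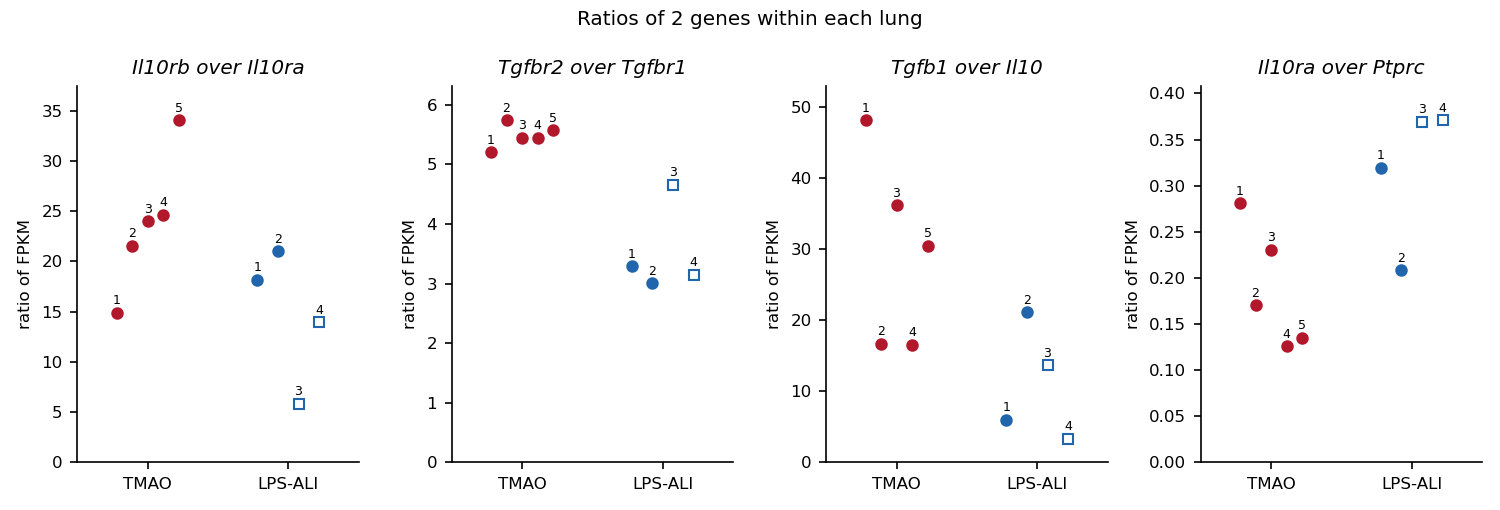
Ratios of the FPKM of 2 genes within each lung, with TMAO left and LPS-ALI right. Numbers are replicates and open squares are the libraries with codes that begin with X. Tgfbr2 over Tgfbr1 was 5.21 to 5.74 in TMAO lungs and 3.00 to 4.66 in LPS-ALI lungs, the only panel without overlap between the groups. Of all tested genes, 14.6% had a ratio to Tgfbr1 that was higher in every TMAO lung than in every LPS-ALI lung.

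The order of the members by mean level was nearly the same in the groups. In TMAO lungs it ran Tgfb1, Il10rb, Il4ra, Tgfbr2, Ebi3, Il10, Tgfbr1, Il10ra, Il27 and Il12b, with means of 39.7, 27.2, 11.8, 9.998, 9.78, 1.84, 1.82, 1.24, 0.478 and 0 FPKM. Every neighbour pair there had overlapping ranges. Within libraries, however, Il10rb exceeded Il4ra, Ebi3 exceeded Il10 and Il10ra exceeded Il27 in 5 of 5 TMAO lungs. Il4ra over Tgfbr2, Tgfbr1 over Il10ra and Il27 over Il12b held in 4 of 5. Tgfbr2 over Ebi3 and Il10 over Tgfbr1 held in 2 of 5. In LPS-ALI lungs Ebi3 stood above Il4ra and Tgfbr2, with 14.2, 14.0 and 9.30 FPKM. Ranges of neighbours did not overlap in LPS-ALI lungs between Il10rb and Ebi3, between Il10ra and Il27, and between Il27 and Il12b. Tgfb1 exceeded Il10rb in 4 of 5 TMAO lungs and in 3 of 4 LPS-ALI lungs.

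**Figure D4:**
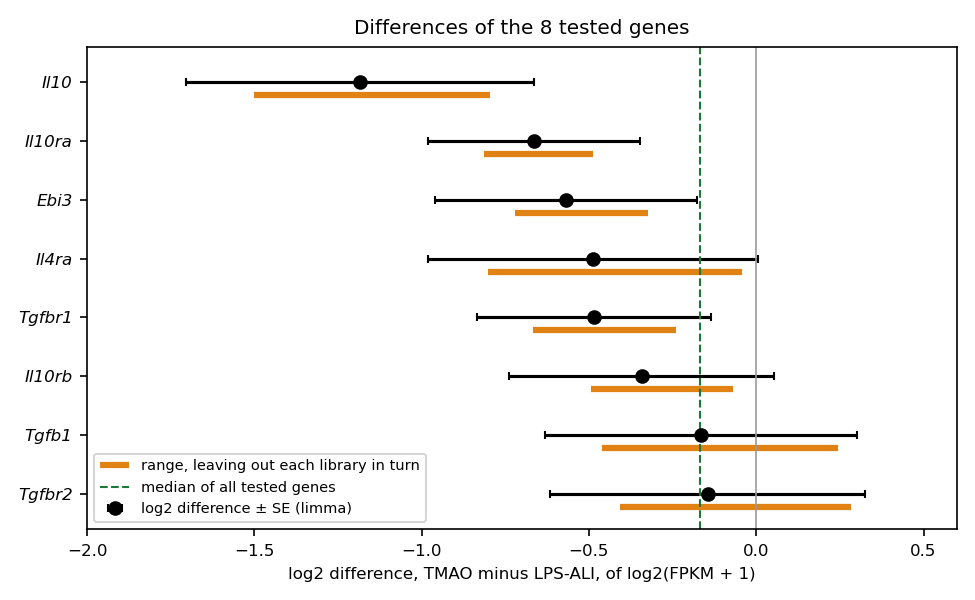
Log2 difference of log2(FPKM + 1), TMAO minus LPS-ALI, of the 8 tested genes, with its limma SE, and the range of that difference when each library is left out in turn. The dashed line is the median of all tested genes, -0.17. Il10 was at -1.18 and Tgfbr2 at -0.14, and the ranges of Tgfb1 and Tgfbr2 crossed 0.

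Other genes of these pathways were taken from 4 lists, and none of their tested members passed limma with adjustment in either direction. Of 16 genes of IL-10 signalling and its relatives 10 were tested, with a median log2 difference of -0.38, or -0.21 relative to the median gene, and 7 below it. Nfil3, a transcription factor gene that IL-10 induces in macrophages, had 3.07, 3.74, 3.71, 7.22 and 1.51 FPKM in TMAO replicates 1 to 5, against 7.32, 7.68, 8.94 and 26.25 FPKM in LPS-ALI replicates 1 to 4. Its groups did not overlap, by a narrow margin between TMAO replicate 4 and LPS-ALI replicate 1, and its log2 difference was -1.39 ± 0.44 (SE, n = 5 and 4). Limma gave an unadjusted p of 0.00660 and an adjusted p of 0.998 for it. Socs3, the feedback inhibitor of cytokine signalling, averaged 21.8 ± 9.71 FPKM in TMAO and 33.2 ± 13.1 FPKM in LPS-ALI lungs (SD, n = 5 and 4). Il20rb, a receptor chain for IL-20 family cytokines, averaged 0.810 ± 0.564 FPKM in TMAO and 1.91 ± 0.937 FPKM in LPS-ALI lungs. Il22ra2, the soluble IL-22 binding protein, had the opposite direction of means, 1.96 ± 0.965 FPKM in TMAO and 1.097 ± 0.908 FPKM in LPS-ALI lungs.

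Of 12 genes of IL-12 and IL-27 signalling 5 were tested, with a median of -0.05 relative to the median gene. Stat4, which transmits IL-12 signals, had 1.00 ± 0.421 FPKM in TMAO and 1.61 ± 1.42 FPKM in LPS-ALI lungs. The kinase gene Jak2 had 12.9 ± 6.04 FPKM in TMAO and 14.4 ± 5.54 FPKM in LPS-ALI lungs. In each of these genes the groups overlapped.

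Of 16 genes around the IL-4 receptor 12 were tested, with a median log2 difference of -0.41, or -0.24 relative to the median gene, and 9 below it. The products of several of them mark alternative macrophage activation. Retnla, a secreted resistin-like protein gene, had 100.3, 146.1, 117.8, 132.7 and 169.6 FPKM in TMAO replicates 1 to 5, against 244.8, 254.1, 167.4 and 388.5 FPKM in LPS-ALI replicates 1 to 4. Only TMAO replicate 5 and LPS-ALI replicate 3 crossed, and the log2 difference was -0.94 ± 0.31 (SE, n = 5 and 4). Limma gave an unadjusted p of 0.00824 and an adjusted p of 0.998 for it. Chil3, a chitinase-like protein gene of alveolar macrophages, averaged 156 ± 63.9 FPKM in TMAO and 224 ± 48.9 FPKM in LPS-ALI lungs. Chil3 is also in the alveolar macrophage list. It gave 286.25 of the 397.6 FPKM of that sum in LPS-ALI replicate 2, and 50.39 of 159.9 FPKM in TMAO replicate 5. Its values here and that sum are therefore not separate observations. Arg1, the arginase gene, averaged 0.912 ± 0.580 FPKM in TMAO and 4.67 ± 6.08 FPKM in LPS-ALI lungs, of which replicate 4 alone had 13.70. Irs2, an adaptor of IL-4 and insulin receptors, averaged 1.20 ± 0.764 FPKM in TMAO and 2.13 ± 0.929 FPKM in LPS-ALI lungs.

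Of 29 genes of the TGF-beta pathway 28 were tested, with a median of 0.10 relative to the median gene, 15 above it and 13 below. Thbs1, thrombospondin, which can release TGF-beta from its latent complex, averaged 7.45 ± 5.60 FPKM in TMAO and 15.5 ± 9.09 FPKM in LPS-ALI lungs. Itgb6, the epithelial integrin chain that activates latent TGF-beta, averaged 1.45 ± 0.595 FPKM in TMAO and 4.94 ± 5.73 FPKM in LPS-ALI lungs, of which replicate 4 had 13.50. Smad7, the inhibitory Smad gene, had 9.91, 11.70, 13.10, 26.20 and 2.20 FPKM in TMAO replicates 1 to 5, against 7.51, 7.08, 7.06 and 2.05 FPKM in LPS-ALI replicates 1 to 4. In 4 of 5 TMAO lungs Smad7 was above every LPS-ALI lung, and its log2 difference was 0.79 ± 0.54 (SE, n = 5 and 4). Limma gave an unadjusted p of 0.159 and an adjusted p of 0.998 for it.

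**Figure D5:**
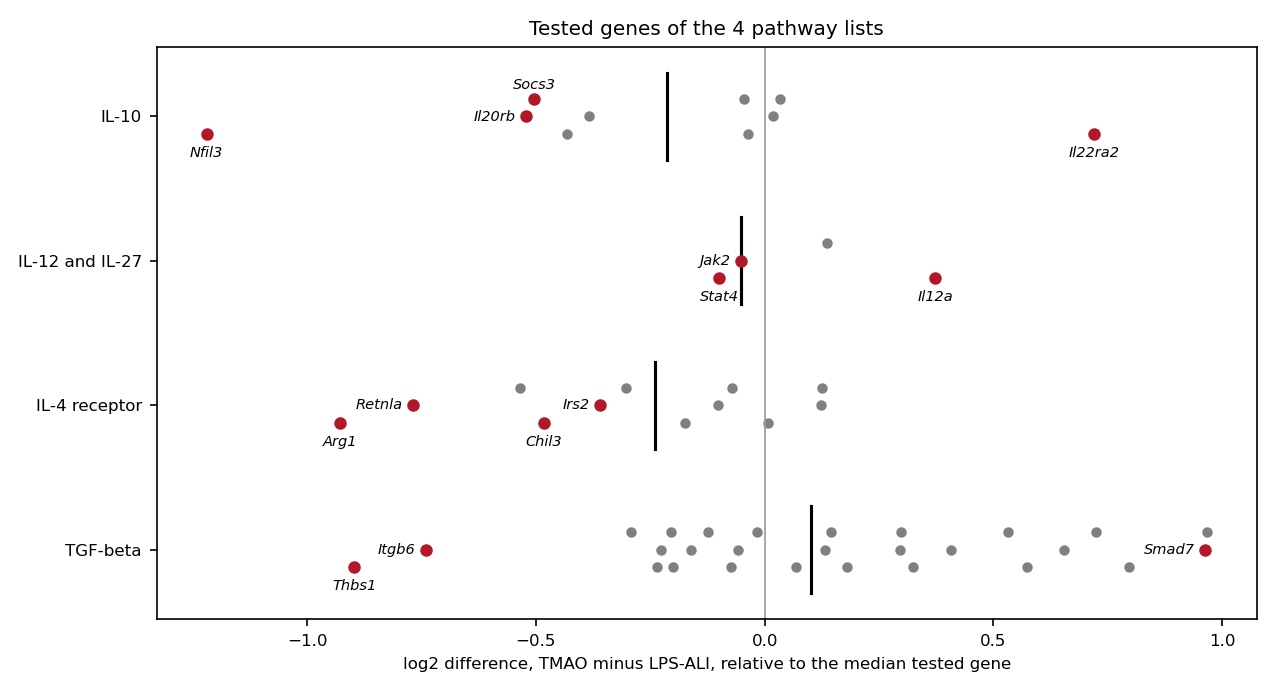
Log2 difference, TMAO minus LPS-ALI, relative to the median tested gene, of tested genes of 4 pathway lists. Points are genes, with those named for their p in red and 2 tested genes left out, and the vertical bars are medians over all tested genes of a list, -0.21, -0.05, -0.24 and 0.10 from the top. Of the genes shown Nfil3 lay lowest and Smad7 and Ltbp2 highest, and none passed the adjusted threshold.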

How the data were processed

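RNA sequencing of lungs from 5 TMAO and 4 LPS-ALI mice was analysed. The deposited values are FPKM made by the authors, rounded to 2 decimals, 1 column per library. The submitters' processing notes name featureCounts, HISAT2, SAMtools and fastp, with build mm10, and the sources used here give no versions, annotation or strand setting. Per the labels' protocols, NEBNext Ultra II libraries were made from Trizol-extracted RNA after removal of ribosomal RNA. Groups and mouse numbers come from the sample titles.

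FPKM values are not counts, so log2(FPKM + 1) was tested over 11817 genes with at least 1 FPKM in at least 4 libraries. Limma 3.58.1 (R 4.3.3, mean-variance trend, two-sided) was used with Benjamini-Hochberg adjustment over all tested genes at 0.05. It was also run on simulated data with independent noise for each gene, to check the size of its estimates. Those data lacked shifts shared by the genes of a library, so they do not show how limma behaves under such shifts. Single members also had an exact two-sided permutation test, whose smallest p is 0.00794. The log2 scale with a pseudocount understates changes of low genes. Relative depth was fitted from the commonest ratio of low values between libraries and matched within 0.1 log2 units in 35 of 36 pairs; absolute depth is unknown. No library repeated another: at most 63 tested genes had equal values in a pair. Positions come from GENCODE M21 on GRCm38, and 52073 of 52381 identifiers matched. Python 3.11.15, pandas 2.3.3 and matplotlib 3.10.9 made tables and figures.

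All members are named, with the 4 smallest p per pathway list and the 3 nearest patterns to Il10, Il4ra and Tgfb1. A few genes that this rule names are not reported here. The other genes named were added for their roles or, for Ltbp2, after its value was seen. Members and lists were chosen with earlier results of these data known. The within-library ratios were not part of the planned tests and carry no p. Alternatives were other pseudocounts, filters, scalings, centrings and variance models, the replicate block, and libraries left out.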

Additional observations from a re-analysis of the deposited data

Results flagged for a closer look

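Single lungs stood far from the rest of their group for 2 members, by the gap to the nearest value over the whole range of the group. Il12b had 0.25 FPKM in LPS-ALI replicate 1 and was listed at 0 in the other 3 LPS-ALI lungs. Il4ra had 9.53 FPKM in LPS-ALI replicate 3, below 15 to 16.33 FPKM in the other 3, with a gap of 0.840 of the range. Chance alone marks about 1 in 20 groups this way where values vary freely. That rate does not hold for Il12b, where any single value above 0 among zeros is marked.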

How the results depend on the processing

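No member passed the adjusted threshold under any of 26 alternatives, and no gene did under 23 of them. Limma with library weights called 51 genes, and leaving out each library in turn gave 0 to 3 (3 without TMAO replicate 4 and 1 without LPS-ALI replicate 3). The 396 genes at an unadjusted limma p under 0.05, 50 higher and 346 lower in TMAO lungs, became 2132 (2069 and 63) with libraries centred on pan-leukocyte markers and 797 (356 and 441) under median-of-ratios scaling, which moved the median gene to 0.34 and -0.01. The directions of Il10, Il10ra and Ebi3 held in all 21 alternatives each that could move them, with unshifted log2 differences of -1.70 to -0.57, -1.06 to -0.16 and -0.85 to -0.06. Centring on pan-leukocyte markers turned 6 members positive: Il10rb 0.17, Il27 0.28, Il4ra 0.0190, Tgfb1 0.34, Tgfbr1 0.0225 and Tgfbr2 0.36. Tgfb1 and Tgfbr2 also turned under median-of-ratios scaling (0.0466 and 0.0125), quantile normalization (0.0868 and 0.0421) and centring on the median gene (0.0098 and 0.0301). With each library left out in turn they ran from -0.46 to 0.24 and from -0.41 to 0.28, the highest without TMAO replicate 5. Without LPS-ALI replicate 4 and TMAO replicate 5 they were 0.25 and 0.33, and Il4ra was 0.0330. Library weights gave 0.14 for Tgfbr2. The fit with the mouse number as a replicate block, in which the unmatched TMAO replicate 5 carries no weight, gave 0.24 for Tgfb1 and 0.28 for Tgfbr2, called 0 genes and changed no call. Same-numbered mice did not deviate together (correlations -0.134 to 0.0641), so the numbers were not taken as pairs. Beyond the construction of the centrings, the cause of these turns was not tested. With a mean of at least 5 FPKM required, Il10, Il10ra and Tgfbr1 had no value. Low members, above all Il27 and Il12b, are limited by depth. This holds for Il10, Il10ra and Tgfbr1 too, each with only 0.33 FPKM in TMAO replicate 5, the shallowest library. The number of fragments behind those values was not estimated.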

Other observations

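Low genes of the same pathways, below the level needed for testing, showed values of their own. Il27ra, the receptor chain specific to IL-27, had 0.37, 0.50, 0.37, 1.20 and 0.89 FPKM in TMAO replicates 1 to 5, against 0.11, 0.33, 0.50 and 0.15 FPKM in LPS-ALI replicates 1 to 4. Ifng, the interferon gene that IL-12 induces, had 0, 0.11, 0, 0.11 and 0 FPKM in TMAO replicates 1 to 5, against 0.71, 0, 0.14 and 0.45 FPKM in LPS-ALI replicates 1 to 4. Tbx21, the transcription factor gene of type 1 lymphocytes, had at most 0.09 FPKM in TMAO lungs and 0.06 to 0.30 FPKM in LPS-ALI lungs. Il20, Il24 and Il20ra, relatives of the IL-10 system, were listed at 0 in all 9 libraries. These values were not tested.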
